A study of Mus with 10 samples.

Results

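Hair follicles grow, regress and rest in cycles, and a small set of secreted signals and transcription factors drives the passage between these phases. The 10 genes described here are the ligand genes Shh, Wnt10b, Bmp4, Fgf5 and Fgf18 and the transcription factor genes Lef1, Msx2, Dlx3, Hoxc13 and Foxn1. They were taken by name from 22180 genes measured on Affymetrix mouse gene arrays. All 10 were measured, each by 1 probe set annotated to that gene alone. In textbook accounts, Wnt signals acting through beta-catenin and LEF1, followed by sonic hedgehog, start and sustain the growth of a new hair, while bone morphogenetic proteins hold the stem cells of resting follicles quiet and later help the hair shaft to differentiate. The homeodomain and forkhead factors of the set act further down, in the cells that build the shaft and its sheath.

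RNA came from the skin of female BALB/c mice, 7 to 8 weeks of age, on 4 arrays labelled PUVA 7D (the 7-day group), 4 labelled PUVA 3D (the 3-day group) and 2 labelled as control. PUVA combines a psoralen, which crosslinks DNA once lit, with UVA light, here applied to the skin surface at 0.25 J/cm2 in 2 sessions weekly over 2 weeks. Imiquimod, which provokes a dermatitis resembling psoriasis in mice, was to follow. The labelled gap of 7 or 3 days is the one between PUVA and imiquimod, and the labels' treatment text gives controls none. It does not say whether the arrayed skin had itself received imiquimod, nor what the controls received, and the UVB treatment it also names was not analysed here. Nothing in the labels says outright that arrays of a group came from separate animals, so p-values cover the spread of these samples alone, and that spread may be technical.

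Values are log2 signals, on which 1 unit is a factor of 2, and levels are compared between arrays for one gene, never between genes. Array medians lay between 5.83 and 5.86. Correlations over all genes ran from 0.98762 to 0.99594 between arrays, and the 2 controls correlated at 0.99262. Markers of skin cells gave signal on all arrays. The mean of 5 basal keratinocyte genes lay between 10.19 and 10.51, and that of 6 differentiated keratinocyte genes between 10.81 and 11.25. On the same arrays the mean of 6 skeletal muscle genes lay between 11.56 and 12.08, and that of 6 adipocyte genes between 9.73 and 10.28. In whole skin, fewer cells of a type and less RNA per cell cannot be told apart.

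The 2 controls differed widely in these genes, which bears on every comparison with control below. Control replicate 2 gave the highest of all 10 arrays for 6 of the 10 genes (Shh, Lef1, Msx2, Hoxc13, Dlx3 and Fgf5) and the lowest for Fgf18. Over all genes it was the highest array for 11.5% and the lowest for 12.8%. Control replicate 1, in contrast, lay within the range of the 8 PUVA arrays for 9 of the 10, all but Msx2, against 82.5% of all genes. Control replicate 2 did so for 3 (Foxn1, Bmp4 and Wnt10b), against 73.9%. It lay above control replicate 1 for 9 of the 10, all but Fgf18, against 47.8%. The median absolute gap between the controls was 0.68 for the 10 genes and 0.13 for all genes. For 5 of them (Lef1, Msx2, Dlx3, Fgf5 and Fgf18) the gap between the controls was wider than the whole range of the 8 PUVA arrays, as it was for 7.4% of all genes. Each control is therefore given by itself, and the differences of the 10 genes from either control alone are in the plot of differences from control. The labels name no batch. The number in the title of control replicate 2 lies well apart from those of the other 9 samples, and the labels do not say what these numbers mean or whether that skin was taken at another time, so its part in the gap between the controls was not tested.

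**Figure D1:**
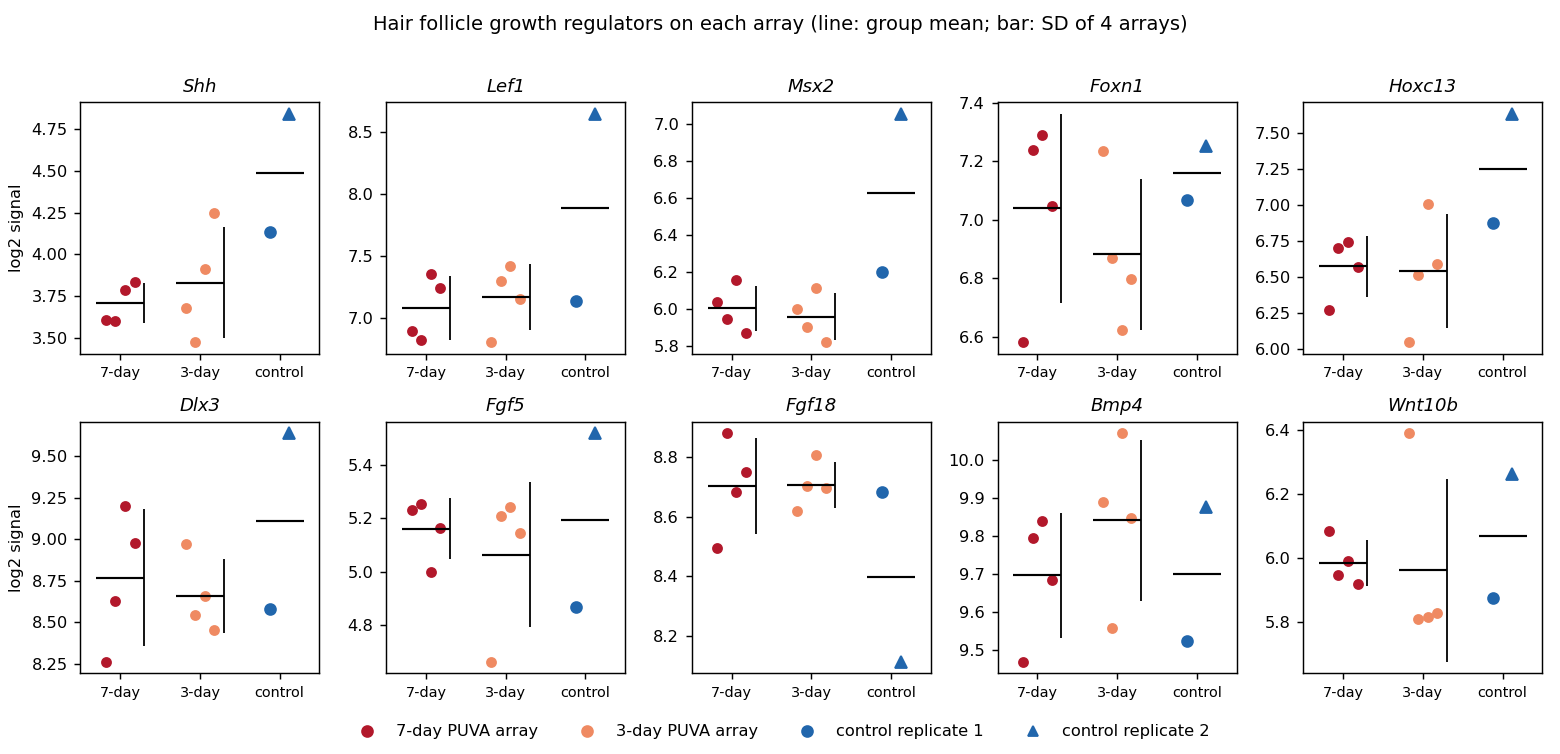
Log2 signal (vertical axes) of each of the 10 genes on the 4 7-day, 4 3-day and 2 control arrays, with the group mean as a line and the SD of 4 arrays as a bar for the PUVA groups. Control replicate 2 (triangle) is the highest array for 6 genes and the lowest for Fgf18, while control replicate 1 (blue circle) lies among the PUVA arrays for 9 genes.

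No gene of the set passed an adjusted p of 0.05 in any comparison, in either direction, in a limma fit over all 10 arrays with Benjamini-Hochberg adjustment over all genes. In the 7-day group against control 9 of the 10 lay lower and 1 higher, with a median log2 difference of -0.23 (all genes 0.02) and a lowest adjusted p of 0.748. The background was 0% of all genes past that threshold. In the 3-day group against control 8 lay lower and 2 higher, with a median of -0.36 (all genes 0.0023) and a lowest adjusted p of 0.334, where 0.00451% of all genes passed. These comparisons share both controls, and the fit takes the controls to vary like the PUVA arrays. For Lef1 the SD was 1.07 over the controls, against 0.26 over the 7-day arrays and 0.27 over the 3-day arrays. For Foxn1 it ran the other way, at 0.13 against 0.32 and 0.26. Where the controls spread more, the standard errors, intervals and p-values given here and below understate the uncertainty of the control mean. At an unadjusted p under 0.05, 4 of the 10 were lower in the 7-day group (background 2.68%) and 3 in the 3-day group (background 4.07%), and none was higher (background 3.21% and 5.67%). Against control replicate 1 alone the medians were near 0, at -0.0039 for the 7-day and 0.03 for the 3-day group, with 5 and 4 of the 10 below 0. Against control replicate 2 alone they were -0.61 and -0.72, with 9 of the 10 below 0 in each.

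**Figure D2:**
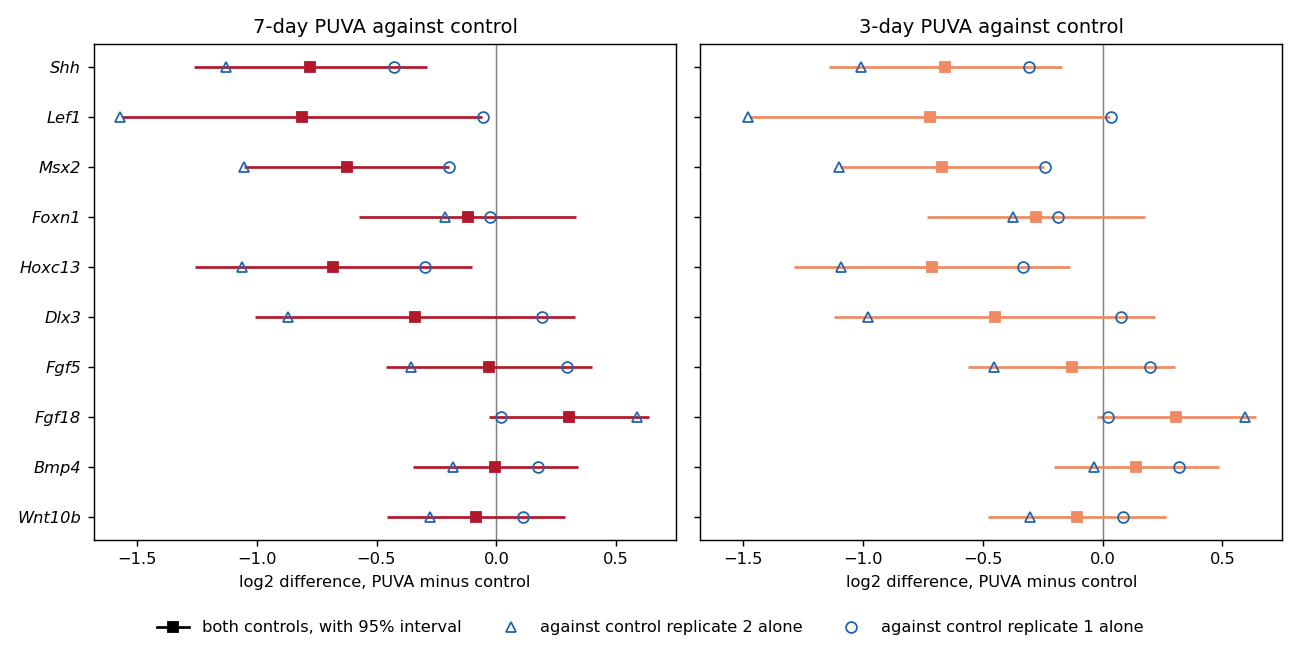
Log2 difference (horizontal axis) of the 7-day group (left) and the 3-day group (right) from control for each gene, as squares with 95% intervals of the fit over all arrays, beside the difference from control replicate 2 alone (triangles) and from control replicate 1 alone (circles). The marks for the single controls lie far apart for Lef1, at -1.57 and -0.06 in the 7-day group and -1.48 and 0.035 in the 3-day group.

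Among the ligands, Shh encodes sonic hedgehog, which the growing epithelium of the follicle secretes. Its log2 signals were 3.61, 3.61, 3.79 and 3.84 in the 7-day group, 3.68, 3.48, 3.91 and 4.25 in the 3-day group, and 4.14 and 4.84 in control replicates 1 and 2. All 7-day arrays thus lay below both controls, whereas 3-day replicate 4 lay above control replicate 1. The log2 difference from control was -0.78 ± 0.22 (SE) in the 7-day group, with an adjusted p of 0.748 and a 95% interval of -1.26 to -0.29. It was -0.66 ± 0.22 in the 3-day group (adjusted p = 0.402). Without control replicate 2 these were -0.43 and -0.305. Shh was dim: its signal lay under the lower quartile of genes (4.49 to 4.57) on 9 of the 10 arrays, all but control replicate 2. Detection above background was not analysed here.

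Wnt10b encodes a Wnt ligand associated with the start of hair growth. Its signals were 6.08, 5.95, 5.99 and 5.92 in the 7-day group, 6.39, 5.81, 5.82 and 5.83 in the 3-day group, and 5.88 and 6.26 in the controls. The groups overlapped, and 3-day replicate 1 was the highest of all arrays. The log2 differences from control were -0.08 ± 0.17 (SE) in the 7-day group and -0.11 ± 0.17 in the 3-day group, with adjusted p of 0.977 and 0.891. Both turned to 0.11 and 0.09 without control replicate 2.

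Bmp4 encodes a bone morphogenetic protein that the dermis and the dermal papilla make. It gave 9.47, 9.79, 9.84 and 9.68 in the 7-day group, 9.89, 9.56, 10.07 and 9.85 in the 3-day group, and 9.52 and 9.88 in the controls. The arrays of all 3 groups overlapped. The log2 differences from control were -0.0039 ± 0.16 (SE) in the 7-day group and 0.14 ± 0.16 in the 3-day group, with adjusted p of 0.998 and 0.832. Each turned sign between the controls: in the 3-day group it was 0.32 without control replicate 2 and -0.04 without control replicate 1.

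Both fibroblast growth factors of the set are known for holding hair growth back. Fgf5 is made in the outer root sheath late in the growth phase and ends it, and mice lacking it have long hair. Its signals were 5.23, 5.25, 4.998 and 5.16 in the 7-day group, 4.66, 5.21, 5.24 and 5.14 in the 3-day group, and 4.87 and 5.52 in the controls. The controls lay on either side of all but 1 PUVA array, 3-day replicate 1, and the log2 differences were -0.03 ± 0.19 (SE) and -0.13 ± 0.19 in the 7-day and the 3-day group, with adjusted p of 0.992 and 0.886. Without control replicate 2 they turned to 0.29 and 0.20.

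Fgf18, which is made in resting follicles and prolongs rest, ran the other way. It gave 8.50, 8.88, 8.68 and 8.75 in the 7-day group, 8.62, 8.70, 8.81 and 8.70 in the 3-day group, and 8.68 and 8.11 in the controls. All 8 PUVA arrays lay above control replicate 2, and control replicate 1 lay among them. Fgf18 was 0.30 ± 0.15 (SE) higher on the log2 scale in the 7-day group and 0.31 ± 0.15 in the 3-day group, with adjusted p of 0.876 and 0.544. Against control replicate 1 alone both differences were 0.02.

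Among the transcription factors, Lef1, the partner of beta-catenin in the precursor cells of the hair shaft, had the widest gap between the controls. Its log2 signals were 6.89, 6.83, 7.35 and 7.24 in the 7-day group, 6.81, 7.30, 7.42 and 7.15 in the 3-day group, and 7.13 and 8.65 in the controls. The gap between the controls, 1.51, was matched or passed by 0.25% of all genes. The log2 difference from control was -0.81 ± 0.34 (SE) in the 7-day group, with an adjusted p of 0.83 and a 95% interval of -1.56 to -0.06, and -0.72 ± 0.34 in the 3-day group (adjusted p = 0.527). Without control replicate 2 these were -0.06 and 0.035, the second with the sign turned.

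Msx2 encodes a homeodomain factor of the hair matrix that helps to keep the follicle in growth. It was the one gene of the set for which all 8 PUVA arrays lay below both controls, as 2.22% of all genes did. The signals were 6.04, 5.95, 6.16 and 5.87 in the 7-day group, 6.001, 5.90, 6.11 and 5.82 in the 3-day group, and 6.20 and 7.06 in the controls. Control replicate 1 stood just above the highest PUVA array. The log2 differences from control were -0.62 ± 0.19 (SE) in the 7-day group (adjusted p = 0.762) and -0.67 ± 0.19 in the 3-day group (adjusted p = 0.334). They were -0.20 and -0.24 without control replicate 2.

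Hoxc13 encodes the homeodomain factor that binds promoters of hair keratin genes, and mice that lack it have brittle hair. Its signals were 6.27, 6.70, 6.75 and 6.57 in the 7-day group, 6.05, 6.52, 7.01 and 6.59 in the 3-day group, and 6.87 and 7.63 in the controls. All 7-day arrays lay below both controls, and 3-day replicate 3 lay above control replicate 1. The log2 differences were -0.68 ± 0.26 (SE) and -0.71 ± 0.26 in the 7-day and the 3-day group, with adjusted p of 0.803 and 0.446, and -0.30 and -0.33 without control replicate 2. Over all genes, 5.85% had every 7-day array below both controls, the position of Shh, Msx2 and Hoxc13 in this set. In the 3-day group the corresponding share of all genes was 7.89%, and of the set Msx2 alone held this position.

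Dlx3, a homeodomain factor needed for the shaft and the inner root sheath, is also active in differentiating epidermis. Its signals were 8.26, 8.63, 9.20 and 8.98 in the 7-day group, 8.97, 8.55, 8.66 and 8.45 in the 3-day group, and 8.58 and 9.64 in the controls. The gap of 1.06 between the controls exceeded that of all but 0.62% of genes. The log2 differences were -0.34 ± 0.30 (SE) in the 7-day group and -0.45 ± 0.30 in the 3-day group, with adjusted p of 0.953 and 0.688, and both turned without control replicate 2, to 0.19 and 0.08. Markers of differentiated keratinocytes, the other cells in which Dlx3 is active, had list means of 10.98 to 11.25 on the 7-day arrays, 10.81 to 11.21 on the 3-day arrays and 11.11 and 11.00 in the controls. Their part in the Dlx3 values was not tested.

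Foxn1, the factor missing in nude mice, whose hair shafts break at the skin surface, had the narrowest gap between the controls. Its signals were 6.58, 7.24, 7.29 and 7.05 in the 7-day group, 7.23, 6.87, 6.62 and 6.80 in the 3-day group, and 7.07 and 7.25 in the controls. PUVA arrays lay above, between and below the controls. The log2 differences were -0.12 ± 0.20 (SE) and -0.28 ± 0.20 in the 7-day and the 3-day group, with adjusted p of 0.973 and 0.718. Foxn1 kept its sign against either control alone, with -0.03 and -0.18 without control replicate 2.

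Between the 7-day and the 3-day group, a comparison that takes no difference from the controls, none of the 10 genes passed the limma test. The lowest adjusted p was 0.738, where 0.00902% of all genes passed, and no gene of the set had an unadjusted p under 0.05 (background 9.77% in either direction). The arrays of both groups overlapped for all 10, whereas 2.28% of all genes had every 7-day array below every 3-day array and 2.95% had them above. The 7-day minus 3-day log2 differences ran from -0.14 ± 0.13 (SE) for Bmp4 to 0.16 ± 0.17 for Foxn1. The 95% interval was narrowest for Fgf18, at -0.28 to 0.27, and widest for Lef1, at -0.70 to 0.52. Differences within these intervals cannot be told from 0. The fit pools the spread within all groups, so the gap between the controls also enters these SEs, intervals and p-values. Lef1 had an SD of 1.07 over the controls, against 0.26 over the 7-day arrays and 0.27 over the 3-day arrays. Its interval width is therefore not a measure of the PUVA arrays alone. In order of group means, Shh and Lef1 ran 7-day, 3-day, control from low to high, and Msx2, Foxn1, Hoxc13, Dlx3, Fgf5 and Wnt10b ran 3-day, 7-day, control. For each of these 8 genes neither step between neighbours passed the test. Fgf18 ran control, 7-day, 3-day, and for Bmp4 the 7-day and control means were both 9.70, with the 3-day mean at 9.84.

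Set against control together, the 8 PUVA arrays gave the same picture. None of the 10 genes passed (background 0%), and the lowest adjusted p was 0.486, for Msx2 with a log2 difference of -0.65 ± 0.18 (SE). Shh had -0.72 ± 0.20, Lef1 -0.77 ± 0.31 and Hoxc13 -0.70 ± 0.24, and these 4 genes were lower at an unadjusted p under 0.05, where 3.39% of all genes were lower. Fgf18, at 0.31 ± 0.14, was higher at that level, with 3.93% of all genes. In a fit with control replicate 2 as the one control, Lef1 (-1.52, adjusted p = 0.0158) and Msx2 (-1.08, adjusted p = 0.00474) passed the adjusted threshold as lower, with 0.924% of all genes. They also passed there in the 7-day group alone (background 0.884%) and in the 3-day group alone (background 0.744%). Over both PUVA groups 6 of the 10 had an unadjusted p under 0.05 there, 5 of them lower, against 8.86% of all genes in either direction. That fit takes the lone control to vary like the PUVA arrays. In a fit with control replicate 1 as the one control, 0 of the 10 passed (background 0.00451%), and 0 had an unadjusted p under 0.05, against 3.72% of all genes.

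**Figure D3:**
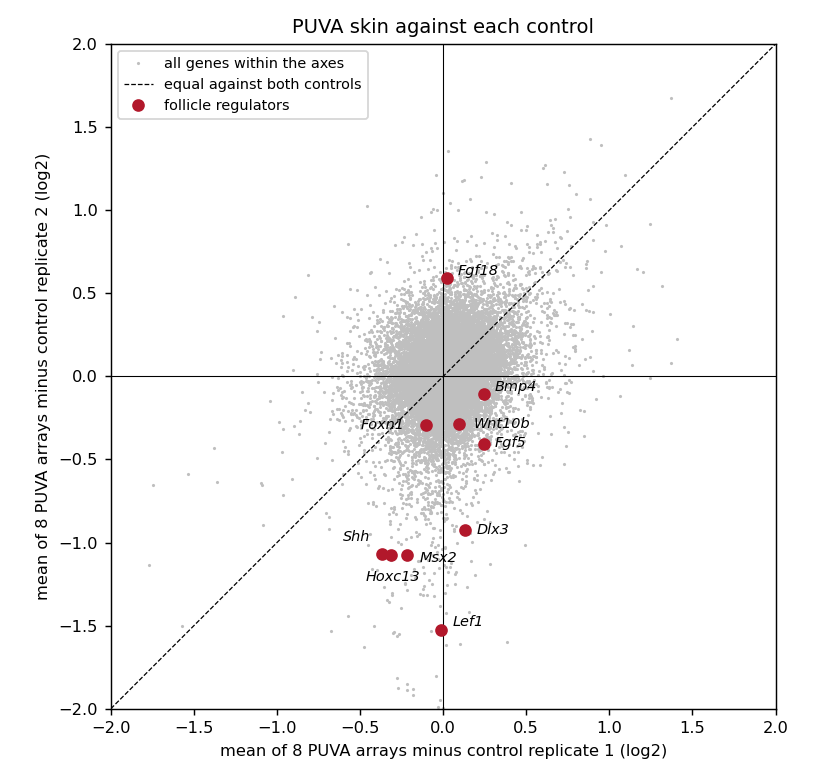
Mean log2 signal of the 8 PUVA arrays minus control replicate 1 (horizontal axis) and minus control replicate 2 (vertical axis) for all genes (grey) and the 10 follicle genes (red), with 41 genes beyond the axis limit of 2. Both axes share the PUVA mean. Lef1, Hoxc13, Shh, Msx2 and Dlx3 lie at -0.92 to -1.52 against control replicate 2 and at -0.37 to 0.13 against control replicate 1.

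The genes around these regulators were taken from 10 lists of pathway and follicle genes. The lists held 258 distinct measured genes, none of which passed an adjusted p of 0.05 in any comparison. The lowest adjusted p was 0.086, that of Krt71 in the 3-day group against control. Of 16 hedgehog pathway genes, 6 lay higher and 10 lower in the PUVA groups together, with a median of -0.07 (all genes 0.01), which was 0.01 without control replicate 2 and -0.17 without control replicate 1. At an unadjusted p under 0.05, 2 were lower and 1 higher, in the backgrounds of 3.39% and 3.93% given above.

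Of the genes that hedgehog signalling switches on, 3 were named. Ptch1, the receptor gene that the pathway itself induces, had signals of 7.84, 7.89, 8.33 and 8.13 in the 7-day group, 7.91, 8.04, 8.00 and 7.80 in the 3-day group, and 8.29 and 9.53 in the controls. Its log2 difference over both PUVA groups was -0.92 ± 0.25 (SE), with an adjusted p of 0.486, and -0.30 without control replicate 2. Gli1, the transcription factor gene that serves as a readout of the pathway, gave 6.44, 6.28, 6.65 and 6.52 in the 7-day group, 6.62, 6.64, 6.46 and 6.16 in the 3-day group, and 6.69 and 7.76 in the controls. All 8 PUVA arrays lay below both controls in Gli1, control replicate 1 by a narrow margin, as for 2.22% of all genes. In the hedgehog list this held for 1 gene of 16, and for 1 other all PUVA arrays lay above both controls. The difference of Gli1 was -0.75 ± 0.22 (adjusted p = 0.524), and -0.22 without control replicate 2. Hhip, which encodes an inhibitor that binds hedgehog and is also induced by it, stood at 5.31 to 5.93 in the 7-day group and 5.53 to 6.17 in the 3-day group, against 5.39 and 7.38 in the controls. The difference of -0.61 ± 0.39 turned to 0.38 without control replicate 2. The receptor component gene Smo had -0.17 ± 0.11 (adjusted p = 0.807), -0.04 without control replicate 2 and -0.30 without control replicate 1. The co-receptor gene Cdon ran opposite, at 9.12 to 9.22 in the 7-day and 9.21 to 9.41 in the 3-day group against 9.04 and 8.90 in the controls, a difference of 0.27 ± 0.08 (adjusted p = 0.524), 0.20 without control replicate 2.

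**Figure D4:**
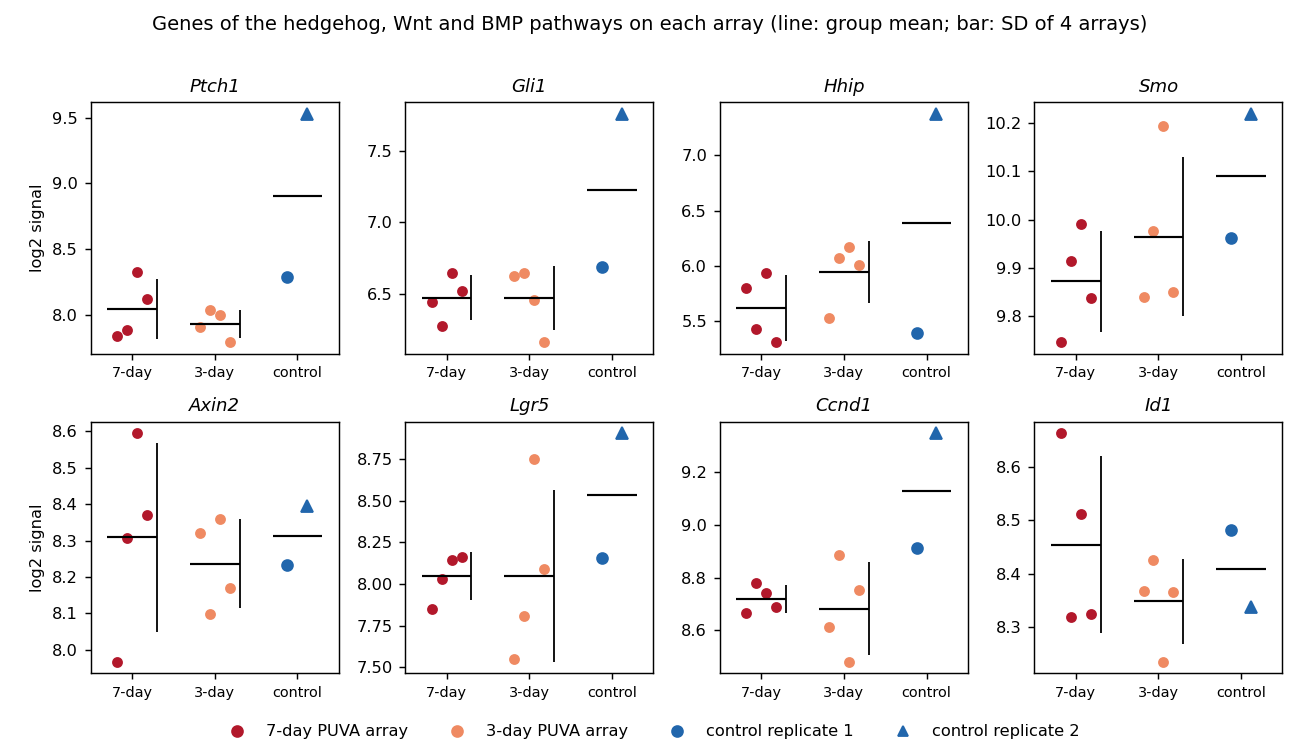
Log2 signal (vertical axes) of 8 genes of the hedgehog, Wnt and BMP pathways on the 4 7-day, 4 3-day and 2 control arrays, drawn as in the plot of the 10 regulators. Control replicate 2 is the highest array for Ptch1, Gli1, Hhip, Smo, Lgr5 and Ccnd1, and lies among the PUVA arrays for Axin2 and Id1.

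Wnt ligands and modulators showed no common direction, while most Wnt receptors, mediators and targets lay lower with both controls in use. Of 35 ligands and modulators, 19 lay higher and 16 lower in the PUVA groups together (median 0.01), with 3 in each direction at an unadjusted p under 0.05 (background 3.39% lower and 3.93% higher). Of 31 receptors, mediators and targets, 8 lay higher and 23 lower (median -0.06), with 2 lower and 0 higher at that level, in the same backgrounds, and without control replicate 2 the median was 0.04. Axin2, the usual readout of the beta-catenin branch in which LEF1 acts, had a log2 difference of -0.04 ± 0.14 (SE, adjusted p = 0.974), 0.04 without control replicate 2 and -0.12 without control replicate 1. Lgr5, a receptor gene of follicle stem cells, had -0.48 ± 0.27 (adjusted p = 0.746), -0.11 without control replicate 2 and -0.86 without control replicate 1. The target Nkd1 had 0.22 ± 0.16 (adjusted p = 0.843), 0.37 and 0.07 without each in the same order. Ccnd1, the cyclin D1 gene, stood at 8.67 to 8.78 in the 7-day and 8.48 to 8.89 in the 3-day group against 8.91 and 9.34 in the controls, with -0.43 ± 0.12 (adjusted p = 0.523), -0.21 without control replicate 2 and -0.64 without control replicate 1. The secreted Wnt inhibitors ran in different directions: Sfrp5 had 0.62 ± 0.17 (adjusted p = 0.497), with signals of 6.57 to 7.22 in the 7-day and 6.99 to 7.55 in the 3-day group against 6.52 and 6.45 in the controls, and Sfrp1 had -0.45 ± 0.16 (adjusted p = 0.585), -0.39 without control replicate 2. The controls of Sfrp5 were close, and its difference was 0.58 without control replicate 2 and 0.66 without control replicate 1.

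Of 31 BMP pathway genes beside Bmp4, 19 lay higher and 12 lower in the PUVA groups together (median 0.07), with 1 higher and 0 lower at an unadjusted p under 0.05 (background 3.93% and 3.39%). The target genes Id1 and Id3 had log2 differences of -0.01 ± 0.10 (SE) and -0.045 ± 0.17, which without control replicate 2 were -0.08 and 0.04, and the receptor gene Bmpr1a had -0.14 ± 0.07 (adjusted p = 0.725), -0.15 without control replicate 2. Of 26 FGF pathway genes 16 lay higher and 10 lower (median 0.05, and 0.02 with either control left out), with 2 lower and 0 higher at that level, in the same backgrounds. Fgfr3, a receptor of fibroblast growth factors, stood at 7.67, 7.80, 7.58 and 7.43 in the 7-day group and 7.37, 7.39, 7.34 and 7.39 in the 3-day group, against 7.97 and 7.86 in the controls. All PUVA arrays of Fgfr3 lay below both controls, as for 2.22% of all genes and 1 of the 26 in the list. Fgfr3 was named for the lowest p of the list in this comparison, so its position is no separate result. The difference of -0.42 ± 0.09 (adjusted p = 0.441) was -0.48 without control replicate 2 and -0.36 without control replicate 1. Every 7-day array of Fgfr3 also lay above every 3-day array, with a 7-day minus 3-day difference of 0.25 ± 0.08 (adjusted p = 0.411), a position shared by 2.95% of all genes. The FGF targets Spry4 and Dusp6 had differences from control of 0.14 ± 0.17 and 0.22 ± 0.20. Spry4 had 0.15 without control replicate 2, while Dusp6 had 0.45 without control replicate 2 and -0.01 without control replicate 1.

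The other follicle transcription factors resembled Lef1 and Msx2 in part. Of 32 measured, 9 lay higher and 23 lower in the PUVA groups together (median -0.09, and -0.06 without control replicate 2), with 6 lower and 0 higher at an unadjusted p under 0.05 (background 3.39% and 3.93%). Control replicate 2 was the highest array for 13 of the 32, against 11.5% of all genes. Foxe1 had a log2 difference of -0.69 ± 0.19 (SE, adjusted p = 0.486), Cux1 -0.45 ± 0.14 and Foxi3 -0.73 ± 0.27. Without control replicate 2 these were -0.29, -0.11 and -0.14. Among 21 genes of the dermal papilla, the mesenchymal cells that instruct the follicle, 5 lay higher and 16 lower (median -0.14, and -0.03 without control replicate 2). Lepr, the leptin receptor gene, was the lowest in p, at 7.35, 7.32, 7.42 and 7.44 in the 7-day group and 7.43, 7.25, 7.39 and 7.41 in the 3-day group, against 7.77 and 8.05 in the controls. Its difference was -0.53 ± 0.09 (adjusted p = 0.237), -0.39 without control replicate 2 and -0.67 without control replicate 1.

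The structural genes on which several of these factors act separated the arrays further. Of 38 hair shaft and inner root sheath genes, 3 lay higher and 35 lower in the PUVA groups together, with a median of -0.73, which was -0.24 without control replicate 2 and -1.19 without control replicate 1. At an unadjusted p under 0.05, 27 were lower and 2 higher (background 3.39% and 3.93%). Control replicate 2 was the highest array for 30 of them, against 11.5% of all genes. Krt71, an inner root sheath keratin gene, had the lowest p of the list, with signals of 3.85 to 5.14 in the 7-day group and 4.36 to 5.60 in the 3-day group against 8.04 and 11.5 in the controls. Its log2 difference was -4.99 ± 0.68 (SE, adjusted p = 0.218), and -3.28 without control replicate 2. Their list mean was 5.28 to 5.32 on the 7-day arrays, 5.17 to 5.51 on the 3-day arrays, 5.71 in control replicate 1 and 7.12 in control replicate 2. For the 10 regulators the corresponding means were 6.69 to 7.00, 6.79 to 6.97, 6.89 and 7.48. In these means control replicate 1 stood above all PUVA arrays in the structural genes and among them in the regulators. Gene by gene, it lay within the PUVA range for 19 of the 38 structural genes and 9 of the 10 regulators, against 82.5% of all genes. Dividing-cell markers, like the regulators, had their highest mean in control replicate 2. The mean of 11 genes, Mki67 and Top2a among them, was 6.99 to 7.14 on the 7-day arrays. It was 7.18 to 7.27 on the 3-day arrays, 7.27 in control replicate 1 and 7.89 in control replicate 2. Control replicate 2 was the highest array for 11 of the 11. All 7-day means of these markers lay below the 3-day means, whereas those of the regulators overlapped. Melanocyte markers also had their highest mean in control replicate 2, with means of 6.12 to 6.32, 6.07 to 6.90, 6.45 and 7.75 in the same order. Control replicate 2 was the highest array for 6 of the 7. The part of these cells in the values of the regulators was not tested.

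**Figure D5:**
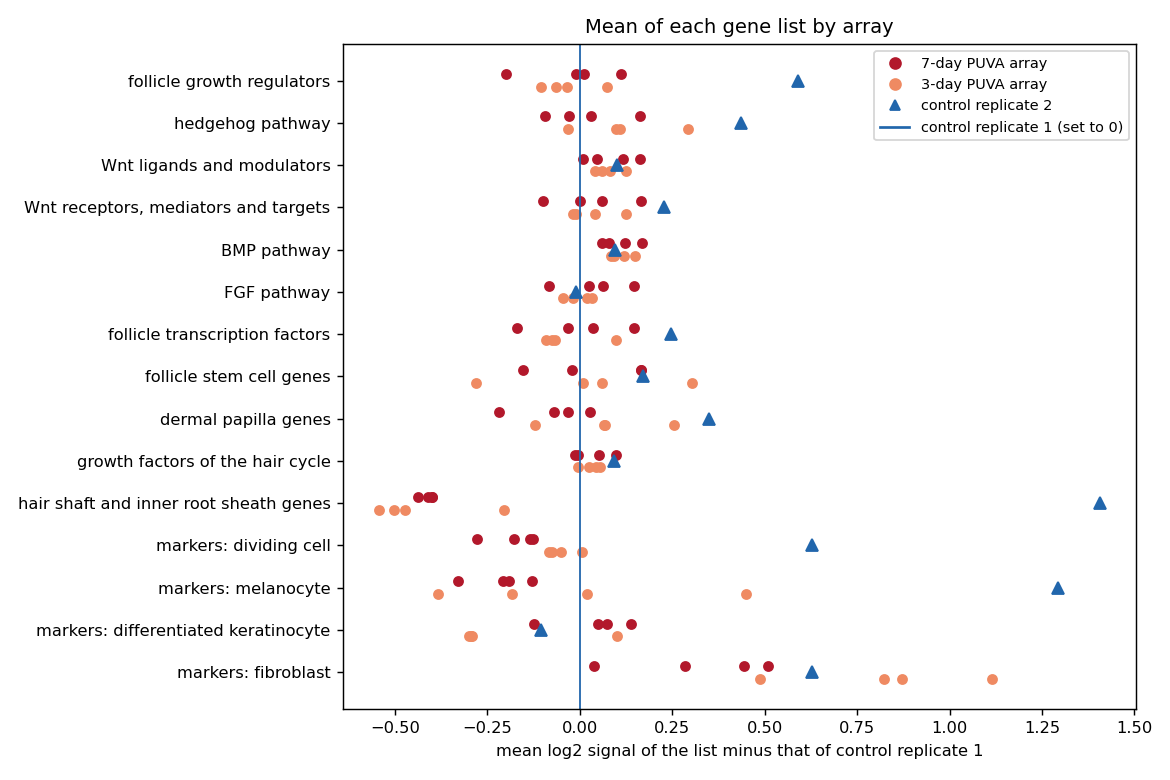
Mean log2 signal of each gene list minus that of control replicate 1 (horizontal axis) for each 7-day array, each 3-day array and control replicate 2. Control replicate 2 stands apart for the regulators, hair shaft and inner root sheath genes, dividing-cell markers and melanocyte markers. It is also the highest array, by less, for hedgehog genes, Wnt receptors and targets, follicle transcription factors and dermal papilla genes. It lies among the PUVA arrays for the other lists, Wnt ligands, BMP and FGF genes among them.

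Among the 8 PUVA arrays alone, the regulators varied by 0.34 (Msx2) to 0.96 (Hoxc13) between the lowest and the highest array. The low and high values did not fall on the same arrays for all genes. Replicate 1 of the 7-day group was the lowest of the 8 for Foxn1, Dlx3, Fgf18 and Bmp4. Replicate 1 of the 3-day group was the lowest for Lef1, Hoxc13 and Fgf5 and the highest for Wnt10b. Replicate 3 of the 7-day group was the highest for Msx2, Foxn1 and Dlx3, and replicate 3 of the 3-day group for Lef1, Hoxc13 and Bmp4. Lef1 was the one member with an SD of at least 0.5 over the 10 arrays, and its nearest genes were sought by the root mean square difference of log2 values centred on each gene's mean. The nearest 3 over the 10 arrays were Fras1, at 0.15, Cdh6, at 0.15, and Ptch1, at 0.18. Fras1, which encodes a basement membrane protein, stood at 5.68 to 5.95 in the 7-day and 5.78 to 6.10 in the 3-day group against 5.998 and 7.22 in the controls, and Cdh6, a cadherin gene, at 6.36 to 6.80 and 6.34 to 7.01 against 6.68 and 7.82. Control replicate 2 was the highest array for each of these 3 genes, as for Lef1. The choice by nearness to Lef1 favours genes with that peak, so it is no separate result.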

How the data were processed

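Deposited values on a log scale, 1 per probe set and array, were used as the authors normalised them; the method is not given in the sources used here, and log2 was inferred from the range of the deposited values. Of 41345 rows, 23521 probe sets carried 1 gene symbol in the platform annotation, 1814 several and 16010 none. For the 1082 genes with more than 1 such probe set, the highest by mean was kept, which gave 22180 genes. Groups came from the sample titles, and no column was left out.

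The 3 groups were fitted together in limma 3.58.1 (lmFit and eBayes, R 4.3.3), with 7 residual and 3.514 prior degrees of freedom, and p-values were adjusted over all genes by Benjamini-Hochberg. The fit was tested on simulated data before use. Those data gave the controls the same spread as the PUVA arrays. The test thus does not cover genes whose controls spread more, Lef1 among them. The number of arrays, 2 controls above all, limits the precision.

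The members and gene lists were chosen with earlier results of these data known. The other genes named were, by rule, pathway readouts, those of lowest p in each list and those nearest to Lef1. Alternatives were array weights (per array or per group), robust eBayes with a trend, centring, quantile normalisation, a filter on the lowest 30% of genes, the mean of a gene's probe sets, adjustment over all probe sets, fitting only the groups compared, other thresholds and leaving out each array. Sequences and coordinates were not used here.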

Additional observations from a re-analysis of the deposited data

Results flagged for a closer look

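Of 138 groups of 4 arrays tested, 7 held an array far from the others by Dixon's criterion, where chance gives about 1 in 20 groups. Among the 10 regulators, Fgf5 on 3-day replicate 1 was low, at 4.66 against 5.14 to 5.24 on the other 3-day arrays, and Wnt10b on the same array was high, at 6.39 against 5.81 to 5.83. On that array Lrp4, a Wnt co-receptor gene, was high at 9.32 (8.96 to 8.98 on the others), and Ctnnb1, the beta-catenin gene, was low at 10.7 (10.9 on the others). Edn1, the endothelin 1 gene, was low on 3-day replicate 2, at 7.33 against 7.94 to 8.06. On the 7-day arrays, Vcan, the versican gene, was high on replicate 1, at 8.19 against 7.76 to 7.80, and Krt27, an inner root sheath keratin gene, on replicate 2, at 4.54 against 4.15 to 4.18.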

How the results depend on the processing

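The control comparisons depend on which control is used, and 2 controls cannot say which is typical. Of 746 values of the 10 genes under the alternatives, 702 kept direction and side of the threshold, 38 reversed (33 on leaving out an array) and 6 passed, those of Lef1 and Msx2 without control replicate 1. No paired analysis was possible because the sample labels share no replicate numbers across groups. The second-highest probe set was not run, since no member has more than 1 annotated to it alone. The probe set that Shh shares with 9530036O11Rik is given under the other observations. Genes past the threshold numbered 1 in the 3-day group against control, with 3 under array weights, 2 under centring, 16 and 61 at adjusted p of 0.1 and 0.2, and 1 to 182 on leaving out an array. Between the PUVA groups they numbered 2, with 6 under array weights, 4 under centring, 1 with only the groups compared, 1 with the filter, 6 and 44 at those thresholds, and 0 to 10 on leaving out an array. The ranges were 0 to 217 for the 7-day group and 0 to 226 for both PUVA groups against control, where 0 passed. The median of the member means in the 7-day group was 7.04 with the filter, which removes Shh. The 7-day minus 3-day difference of Fgf18 was 0.0052 under array weights, 0.0228 under centring and 0.0039 under quantile normalisation, and that of Bmp4 in the 7-day group against control 0.0028 and 0.0241 under array weights and centring. Leaving out an array gave these ranges of log2 differences. In the 7-day group against control they were -0.21 to 0.0323 for Foxn1, -0.87 to 0.19 for Dlx3, -0.36 to 0.29 for Fgf5, -0.18 to 0.17 for Bmp4 and -0.28 to 0.11 for Wnt10b. In the 3-day group they were -1.48 to 0.035 for Lef1, -0.98 to 0.0779 for Dlx3, -0.45 to 0.20 for Fgf5, -0.0362 to 0.32 for Bmp4 and -0.30 to 0.0857 for Wnt10b. For both groups they were -0.92 to 0.13 for Dlx3, -0.41 to 0.24 for Fgf5, -0.11 to 0.24 for Bmp4 and -0.29 to 0.10 for Wnt10b. Between the PUVA groups they were -0.24 to 0.0189 for Shh, -0.0068 to 0.10 for Msx2, -0.13 to 0.19 for Hoxc13, -0.0344 to 0.28 for Dlx3, -0.0362 to 0.16 for Fgf5, -0.064 to 0.0636 for Fgf18 and -0.0271 to 0.17 for Wnt10b. Causes of these shifts were not tested.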

Other observations

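Hbegf, Tgfb2 and Krt19 were among the genes of lowest p in the growth factor and stem cell lists of the follicle. Hbegf, which encodes a ligand of the EGF receptor, stood at 6.93 to 7.50 in the 7-day group and 7.01 to 7.49 in the 3-day group, against 6.81 and 6.86 in the controls. Its log2 difference over both PUVA groups was 0.39 ± 0.14 (SE), with an adjusted p of 0.601 by limma. Tgfb2, which encodes a transforming growth factor beta, stood at 8.19 to 8.61 and 8.25 to 8.91 against 7.95 and 8.14, with 0.40 ± 0.17 (adjusted p = 0.661). Krt19, a keratin gene of the bulge, stood at 5.50 to 5.82 and 5.56 to 5.68 against 5.43 and 5.30, with 0.27 ± 0.09 (adjusted p = 0.58). Without control replicate 2 these differences were 0.42, 0.50 and 0.20 for Hbegf, Tgfb2 and Krt19. For all 3 genes every PUVA array lay above both controls, as 2.95% of all genes did. They were named for their low p in this comparison, so that position is no separate result. Tgfb3, named by the same rule, ran lower, with -0.23 ± 0.12 (adjusted p = 0.73). Of the 29 growth factor genes 11 lay higher and 18 lower, and of the 15 stem cell genes 5 lay higher and 10 lower.

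A probe set annotated to both Shh and 9530036O11Rik, which cannot be assigned to either, gave 4.80 to 5.07 on the 7-day arrays, 4.45 to 5.11 on the 3-day arrays, and 5.24 and 7.95 in control replicates 1 and 2.

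Krt24, a stem cell list gene, had its controls apart the other way, at 7.44 in replicate 1 and 6.07 in replicate 2. Every 7-day array of Krt24 lay above every 3-day array, at 6.69 to 6.95 against 5.97 to 6.48, as for 2.95% of all genes. The 7-day minus 3-day log2 difference of Krt24 was 0.52 ± 0.24 (SE, adjusted p = 0.522 by limma). Vcan of the dermal papilla list and Bmp1 of the BMP list had every 7-day array below every 3-day array, as for 2.28% of all genes. Their differences were -0.84 ± 0.23 (adjusted p = 0.312) and -0.48 ± 0.14 (adjusted p = 0.336). In that comparison 7 of the 15 stem cell genes lay higher and 8 lower, and 5 of the 21 dermal papilla genes higher and 16 lower.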
